A study of Mus musculus with 15 samples.

Results

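The genes described here encode solute carriers, the membrane proteins that move sugars, amino acids, nucleotides, metal ions, vitamins and organic anions across the plasma membrane and the membranes of mitochondria, Golgi and lysosomes. Members were all genes whose current symbol begins with Slc followed by a digit, or with Slco. The array carried 284 probes for 213 such genes, and 212 of them had values on at least 4 arrays of each dye orientation and were kept, out of 9720 genes that met the same condition. The gene left out, Slc6a8, the creatine transporter, had 2 values in one orientation. Of the 212 genes, 209 are carriers of 48 families, and 3 (Slc4a1ap, Slc9a3r1 and Slc9a3r2) share the name but encode proteins that bind carriers.

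RNA of a mouse lymphoid ES cell line under treatment was hybridised together with RNA of the untreated line on 15 cDNA arrays of 20205 probes. Treated RNA carried Cy5 on 8 arrays and Cy3 on 7. What the treatment was, for how long it lasted, what makes the line lymphoid, and whether arrays share RNA extracts or cultures is not given in the labels, and their protocol mentions organs and a reference from control animals, which is at odds with a cell line. The 15 arrays were therefore 1 group, and p-values measure only the spread between arrays, which may be technical. The question was which carriers differ in RNA level between the treated and the untreated line; in such bulk RNA, fewer cells of a type and less RNA per cell cannot be told apart.

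Between 19213 and 19973 probes per array, and 203 to 211 of the 212 genes, had a measured value. The deposited log2 ratio had array medians between -0.019 and 0.063 and an SD over the 212 genes between 0.29 and 0.73. Arrays of one orientation correlated over probes at r between -0.057 and 0.32 (median 0.083). For arrays of opposite orientation r lay between -0.17 and 0.069 (median -0.058). Arrays 7, 8 and 15 stood apart, with no r above 0.0835 to any other array, and several estimates are given without 1 or all of them as well.

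The direction of the ratio is not stated. On the reading used here, the deposited values are treated over untreated on every array. Placeholder values for an empty channel, 1999 in all, are positive where the treated RNA was in Cy5 and negative on the dye swaps. That is what an empty Cy3 channel gives in ratios already turned. An empty untreated channel in unturned ratios would give it too, so the placeholders cannot decide between the readings. Each gene is therefore described by 2 quantities. The treatment estimate is the mean of both orientations of the deposited ratio, and the dye effect is 0.5 times the difference between them, treated in Cy5 minus treated in Cy3. If the swaps had not been turned before deposit, the roles of these quantities would change places. Values given below "with the swaps turned" follow that other reading, with the sign of the deposited ratio reversed on the dye swaps. "Called" means a Benjamini-Hochberg adjusted p under 0.05 in limma, over all 9720 genes. Other fits were adjusted over what each tested: 9795 genes for Cy5 alone, 9744 for Cy3 alone and 19863 probes for single probes. Over all genes, the treatment estimate was called for 4 and the dye effect for 254. Which reading holds was not tested.

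Solute carriers set which nutrients a cell can take up and which organelles they reach. Among the best known in dividing blood and stem cells are the light chain Slc7a5 and its heavy chain Slc3a2, which exchange large neutral amino acids, the glutamine carriers Slc1a5 and Slc38a2, and the mitochondrial adenine nucleotide and phosphate carriers Slc25a5 and Slc25a3. Slco4a1, of the organic anion transporting polypeptides, is known as a carrier of thyroid hormone and other amphipathic anions.

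The gene Slco4a1 is shown first with its promoters, because it is the solute carrier gene that was called for the treatment estimate. RefSeq (GRCm38.p6) places 2 starts of this gene on the plus strand of mouse chromosome 2, and the 250 bases before each, chr2:180455995-180456244 and chr2:180460728-180460977, are printed 5′ to 3′ with the GC box GGGCGG, searched on both strands, in capitals.
Slco4a1 upstream of start 1: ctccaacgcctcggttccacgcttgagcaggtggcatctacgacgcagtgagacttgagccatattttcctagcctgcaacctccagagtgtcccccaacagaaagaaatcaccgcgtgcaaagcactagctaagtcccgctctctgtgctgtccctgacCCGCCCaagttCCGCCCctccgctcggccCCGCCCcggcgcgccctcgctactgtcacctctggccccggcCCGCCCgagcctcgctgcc
Slco4a1 upstream of start 2: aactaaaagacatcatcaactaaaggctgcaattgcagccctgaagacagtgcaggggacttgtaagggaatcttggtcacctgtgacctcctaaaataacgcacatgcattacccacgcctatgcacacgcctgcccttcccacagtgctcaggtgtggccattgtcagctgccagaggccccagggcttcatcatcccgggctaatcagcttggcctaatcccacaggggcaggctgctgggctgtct
The first window holds 4 GC boxes at a GC content of 64.8%, and the second holds 0 at 54.8%. Of 32851 such windows in the table, 32.7% hold this motif, and of the 389 windows of solute carrier genes 49.4% do. The E-box CACGTG is in neither window, against 6.02% of all windows and 10.5% of those of solute carrier genes. Such matches describe the letters alone, and which of the starts gave the RNA on the arrays was not measured.

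On the arrays, Slco4a1 lay below 0 nearly throughout. With the treated RNA in Cy5 its log2 ratio was -1.12 at the lowest, -0.50 at the median and -0.33 at the highest of 8 arrays. On the 7 dye swaps these values were -0.52, -0.24 and 0.057. Only array 12 lay above 0, so 14 of 15 arrays were on the lower side, in both orientations. The treatment estimate was -0.42 ± 0.065 (SE, n = 15 arrays), a fold of 0.746, with an adjusted p of 0.0180 in limma. Of all genes, 0.0412% were called, 4 of 9720, and 1 of the 212 solute carrier genes. Above 0 and below 0 alike, 0.0206% of all genes were called, 2 each, and the solute carrier gene was among those below 0. The dye effect of Slco4a1 was -0.15 ± 0.065 and was not called (limma adjusted p = 0.198). This would be the treatment estimate if the swaps had not been turned before deposit. The reading used here takes them as already turned. Within one orientation Slco4a1 was not called either, at -0.58 ± 0.10 in Cy5 (limma adjusted p = 0.197) and -0.27 ± 0.09 in Cy3 (limma adjusted p = 0.273).

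The call lay near its threshold. Leaving out each array in turn, Slco4a1 was called in 12 of 15 fits, with estimates between -0.45 and -0.38, and it missed the threshold without array 10 (limma adjusted p = 0.0628), array 11 (0.0555) or array 14 (0.0509). Without arrays 7, 8 and 15 together it was at -0.42 ± 0.07 and was not called (limma adjusted p = 0.0780). The gene has 1 probe, none of whose values was dim, that is, made of channel signals of a few units; no second probe could check it.

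The other organic anion transporting polypeptides did not share this pattern in the sense of a call. Slco1a6 was the other member below 0, at -0.13 ± 0.23 (SE). Slco2a1, the prostaglandin transporter, was at 0.049 ± 0.066, Slco2b1 at 0.034 ± 0.19, Slco3a1 at 0.092 ± 0.059, Slco1c1 at 0.24 ± 0.21 and Slco5a1 at 0.23 ± 0.28. Slco3a1 has an SE as small as that of Slco4a1, but its probes lay apart, at -0.0030 ± 0.081 and 0.19 ± 0.085. The probes of Slco2b1 were at -0.10 ± 0.16 and 0.45 ± 0.24, the second with values on 8 arrays. Slco1a6, Slco1c1 and Slco5a1 varied so much between arrays that a difference of the size seen for Slco4a1 could not be told from 0. The differences between these genes were not tested.

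Over the whole set, 126 of 212 treatment estimates lay above 0 and 86 below, with a median of 0.018 (log2), beside 52.0% above 0 and a median of 0.0054 over all genes. The quartiles of the estimates were -0.068 and 0.104. The dye effect lay above 0 in 110 of the 212 genes, where the share of all genes is 49.2%. At least 12 arrays lay on one side of 0 for 16 solute carrier genes, 7.55% of them, beside 4.71% of all genes. At an unadjusted p under 0.05 in limma there were 20 solute carrier genes, 9.43% of them, against a background of 7.02% of all genes. Of these, 12 lay above 0, where the background is 3.94%, and 8 below 0, where it is 3.08%. Apart from Slco4a1 these genes are described for their values, and none was called. A gene's SE over arrays was 0.096 at the median, and precision is limited by how many arrays there are.

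**Figure D1:**
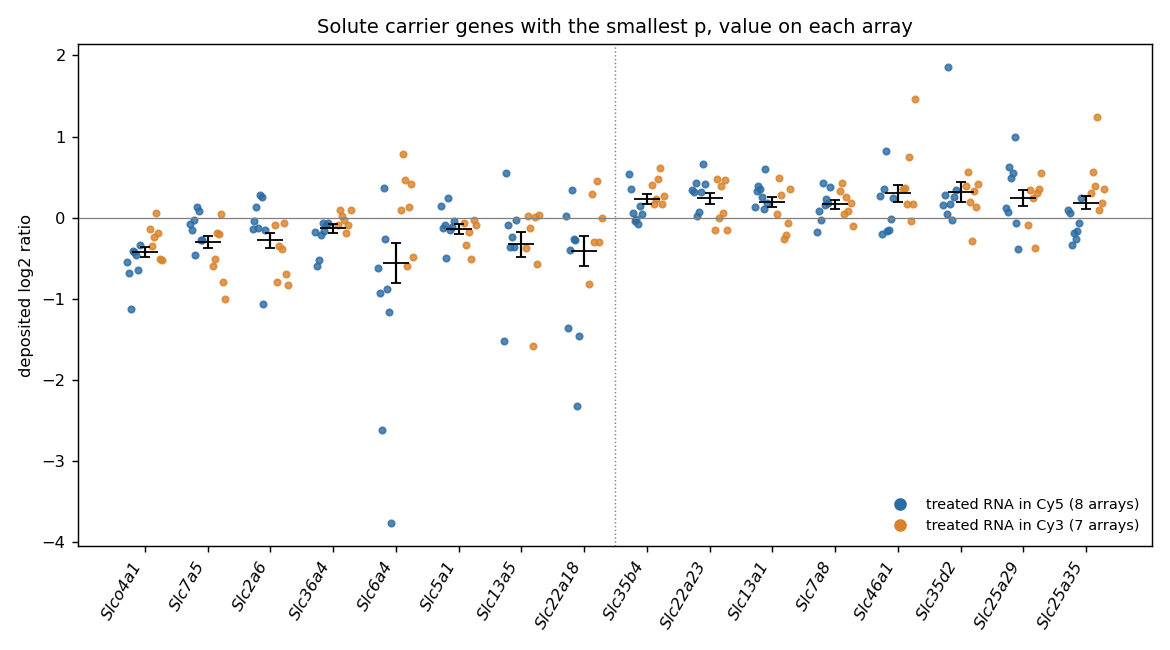
Deposited log2 ratio (y axis) on each array for the 8 solute carrier genes with the smallest p below 0 (left of the dotted line) and above 0 (right). Points are arrays, blue with the treated RNA in Cy5 and orange with it in Cy3; the black bar is the treatment estimate ± SE from limma. Slco4a1 lay below 0 on 14 of 15 arrays, and Slc6a4 ranged down to -3.77 in Cy5.

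Amino acid carriers split around 0, with 14 of 29 genes above 0, 15 below, a median of -0.013 and no call. The member with the smallest p was Slc7a5, the light chain of the large neutral amino acid exchanger. Its ratio was -0.47 at the lowest, -0.12 at the median and 0.13 at the highest of the Cy5 arrays, and -0.998, -0.51 and 0.050 on the swaps. It lay below 0 on 12 of 15 arrays, more deeply on the swaps. The treatment estimate was -0.30 ± 0.077 (SE, n = 15; limma p = 0.00135, adjusted p = 0.327). With array weights the estimate was -0.19, and with the swaps turned it was 0.17.

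Slc3a2, the heavy chain that brings Slc7a5 to the surface, was at -0.26 ± 0.22 (limma adjusted p = 0.820). On array 7 it stood at -3.05, while the next Cy5 array was at -0.42, and the Cy5 median was 0.19. All 6 swaps with a value were below 0, between -0.57 and -0.043. Without array 7 the estimate was -0.063 ± 0.074, so its size rested on that array.

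Slc7a8, a second light chain of this exchanger, was on the other side of 0. It lay above 0 on 6 of 8 Cy5 arrays (lowest -0.17, median 0.17, highest 0.43) and on 6 of 7 swaps (lowest -0.10, median 0.18, highest 0.43). The 2 orientations gave nearly the same mean, 0.16 ± 0.08 and 0.17 ± 0.08, and the treatment estimate was 0.17 ± 0.057 (limma p = 0.0102, adjusted p = 0.561). The difference between Slc7a5 and Slc7a8 was not tested. Of the 7 genes of this family, 6 lay above 0 and Slc7a5 alone below.

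The reverse held for the Slc38 family of neutral amino acid carriers, where Slc38a2 alone lay above 0 and the other 7 below. Slc38a2, a glutamine and alanine carrier, had 2 probes that gave 0.18 ± 0.094 and 0.16 ± 0.11. The average was 0.17 ± 0.078 (limma p = 0.0424, adjusted p = 0.704). It was above 0 on 6 of 7 swaps but on 3 of 8 Cy5 arrays, and 7 of its spot values were dim. The other 7 ranged from -0.18 ± 0.18 for Slc38a4 to -0.058 ± 0.11 for Slc38a3, none with an unadjusted p under 0.05.

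Slc36a4, a carrier of proline and tryptophan, was at -0.13 ± 0.053 (limma p = 0.0257). All 8 Cy5 arrays were below 0, between -0.60 and -0.063, whereas the swaps straddled 0 between -0.19 and 0.097. Slc1a5, the main glutamine exchanger, was at 0.098 ± 0.11, and its swaps ranged from -0.64 to 1.27; without arrays 7, 8 and 15 it was at 0.031 ± 0.081, and without array 15 alone at -0.0040 ± 0.077. The glutamate carrier Slc1a1, with 4 probes between -0.080 and 0.10, was at 0.0030 ± 0.063. For Slc1a2, also with 4 probes, the orientation means of 0.0465 and -0.0465 cancelled, with an SE of 0.12, and its probes ran from -0.13 to 0.45.

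Genes regulated through the transcription factor ATF4, which answers amino acid shortage and acts on several of these carriers, were read beside them from a fixed list. Of 16 measured, 4 lay above 0 and 12 below, with a median of -0.077; none was called, and Atf4 (-0.32 ± 0.11) and Ddit3 (-0.17 ± 0.056), a stress factor downstream of it, had an unadjusted p under 0.05 in limma (0.00848 and 0.00666). Asns, asparagine synthetase, was at 0.0031 ± 0.085. Across all genes the median was 0.0054.

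Sugar carriers numbered 16, 9 above 0 and 7 below, with a median of 0.033. Slc2a6, a hexose carrier of lysosomes in macrophages, was at -0.28 ± 0.096 (limma p = 0.0100, adjusted p = 0.561). All 7 swaps lay below 0 (lowest -0.82, median -0.39, highest -0.059), while 3 of 8 Cy5 arrays were above 0 and array 7 stood at -1.07, apart from the others. Without array 7 the estimate of Slc2a6 was -0.21 ± 0.073, and without arrays 7, 8 and 15 it was -0.17 ± 0.076. Slc5a1, the sodium-coupled glucose carrier of the gut, was at -0.14 ± 0.063 (limma p = 0.0433), below 0 on 12 of 14 arrays with a value. Slc2a3, the high-affinity neuronal and embryonic glucose carrier, lay above 0 on 12 of 15 arrays at 0.12 ± 0.14. No probe is named here for Slc2a1, the general glucose carrier.

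Markers of myeloid cells, in which Slc2a6 is known to be expressed, were read from a fixed list: 8 of 9 measured lay below 0, with a median of -0.12 and none called for the treatment estimate. With the swaps turned the median of this list was 0.12. Camp was at -0.30 ± 0.093 (limma p = 0.00594), S100a9 at -0.18 ± 0.058 (0.00603) and C1qb at -0.18 ± 0.078 (0.0320). The background of an unadjusted p under 0.05 below 0 is 3.08% of all genes. S100a9 was called for the dye effect, at 0.31 (limma adjusted p = 0.0126), which would be its treatment estimate with the swaps turned. Their part in the value of Slc2a6 was not tested. Ratios of 2 RNAs give no level, so whether the line expresses the markers of its labelled type could not be read. Of pluripotency markers 7 of 10 lay above 0 (median 0.060), of B cell markers 4 of 6 (0.052), of T cell markers 3 of 6 (0.011), of general blood markers 4 of 8 (0.0099), of erythroid markers 1 of 4 (-0.047) and of fibroblast markers 9 of 12 (0.061). With the swaps turned the medians were -0.088 for pluripotency, -0.030 for B cell, 0.085 for T cell, 0.011 for general blood, 0.064 for erythroid and 0.0021 for fibroblast markers, so those of the pluripotency, B cell and erythroid lists changed side. No marker was called for the treatment estimate, and 4 outside the myeloid list had an unadjusted p under 0.05 for it. The background is 7.02% of all genes. Above 0 were Ptprc at 0.19 ± 0.053 (limma p = 0.00222), Esrrb at 0.45 ± 0.17 (0.0198) and Ikzf1 at 0.56 ± 0.25 (0.0438). Below 0 was S100a4 at -0.16 ± 0.045 (0.00302). For the dye effect, Cd48 of the general blood list was called beside S100a9, at 0.38 (limma adjusted p = 0.00415). There the background is 2.61% of all genes.

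The nucleotide sugar carriers of the Slc35 family bring activated sugars into the Golgi and endoplasmic reticulum. All Slc35 genes were put in this class by family name, whatever the cargo of each. In this class 11 of 16 genes lay above 0 and 5 below, with a median of 0.040; with the swaps turned the class median was -0.049. All 4 with an unadjusted p under 0.05 in limma were above 0, where the background is 3.94% of all genes; none was called. Slc35b4, a carrier of UDP-xylose and UDP-N-acetylglucosamine, had the smallest p of all solute carrier genes above 0. On the 7 swaps every value was above 0 (lowest 0.17, median 0.27, highest 0.61), and on the Cy5 arrays 5 of 8 were (lowest -0.082, median 0.054, highest 0.53). The treatment estimate was 0.23 ± 0.058 (limma p = 0.00111, adjusted p = 0.309). Its probes disagreed, one at 0.43 ± 0.083 and the other at 0.029 ± 0.063, so the average stands for 1 of 2 probes.

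Slc35d2 was at 0.32 ± 0.12 (limma p = 0.0171) and above 0 on 13 of 15 arrays. Array 4 stood at 1.86, with the next Cy5 array at 0.34; without it the estimate was 0.21 ± 0.064. Slc35f6 was at 0.34 ± 0.15 and Slc35d3 at 0.27 ± 0.12, with 8 and 10 of 15 arrays above 0. Slc35c2, linked to GDP-fucose supply, was the member below 0 with the smallest p, at -0.15 ± 0.070 (limma p = 0.0502). Its orientations differed: 5 of 8 Cy5 arrays were above 0 (mean 0.080 ± 0.098) and 6 of 7 swaps below (mean -0.38 ± 0.10). The dye effect of Slc35c2 was 0.23 ± 0.070 and was not called (limma adjusted p = 0.0881).

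**Figure D2:**
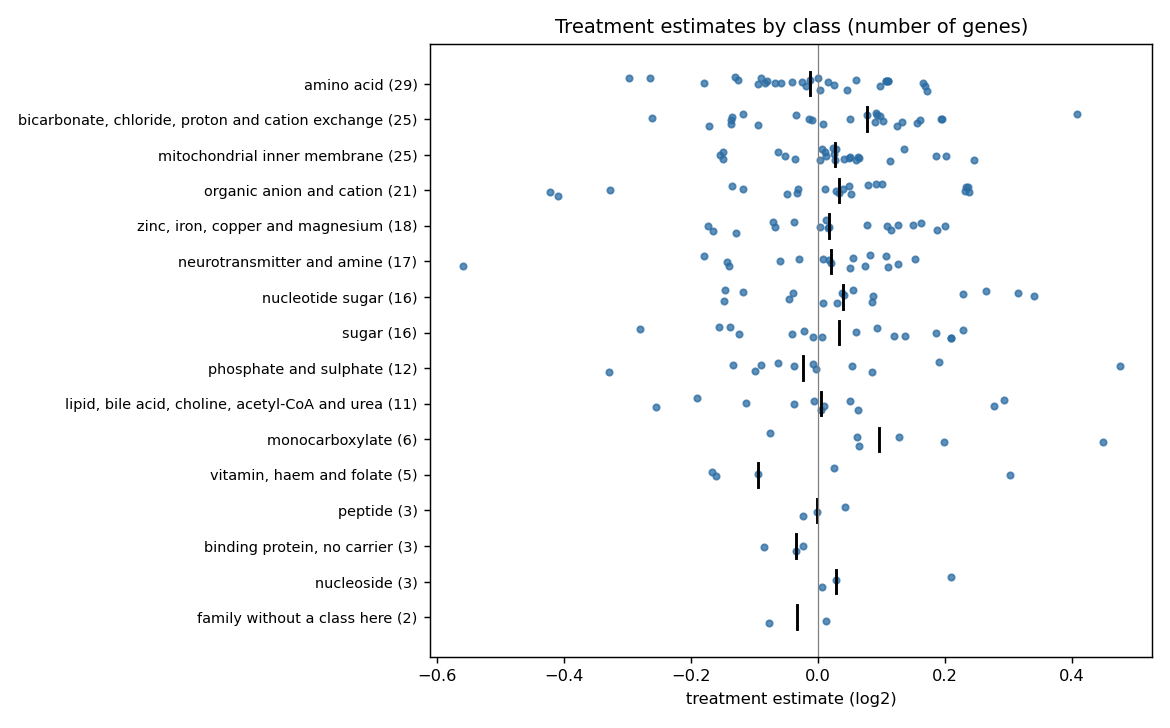
Treatment estimate (x axis, log2) of each of the 212 solute carrier genes by class of cargo or place (y axis, with the number of genes). Points are genes, spread vertically for display only, and black bars are class medians. Class medians lay between -0.095 and 0.096, and single genes between -0.56 and 0.48.

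Mitochondrial carriers of the Slc25 family exchange metabolites across the inner membrane. Of 25 genes, 19 lay above 0 and 6 below, with a median of 0.027, and none was called. Slc25a29, a carrier of basic amino acids, was at 0.25 ± 0.098 (limma p = 0.0229), and both orientations had a median of 0.31. Slc25a35, whose cargo is less well known, was at 0.19 ± 0.078 (limma p = 0.0301), but its orientations differed: all 7 swaps were above 0, between 0.097 and 1.25, and 5 of 8 Cy5 arrays were below. Without array 12, which stood at 1.25, Slc25a35 was at 0.12 ± 0.058. Slc25a46, an outer membrane member of this family with 3 probes, was at 0.0072 ± 0.046. Slc25a5, the adenine nucleotide exchanger of dividing cells, was at -0.15 ± 0.087, with every swap below 0 (lowest -0.70, median -0.50, highest -0.14) and 5 of 8 Cy5 arrays above. Without arrays 7, 8 and 15 Slc25a5 was at -0.032 ± 0.069. Its near-identical copies could share hybridisation on a cDNA probe.

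Carriers of organic anions and cations outside the Slco family included members far from 0 in both directions. Slc22a23, an orphan of the organic ion family, was at 0.24 ± 0.067 (limma p = 0.00267, adjusted p = 0.406). All 8 Cy5 arrays were above 0 (lowest 0.022, median 0.33, highest 0.67), as were 4 of 7 swaps (lowest -0.15, median 0.054, highest 0.48). Both of its probes had the same estimate within their error, 0.24 ± 0.10 and 0.23 ± 0.063, though the second had a dye effect of 0.27 ± 0.063 (limma adjusted p = 0.0342). Slc22a6, the renal organic anion exchanger, was at 0.23 ± 0.10 (limma p = 0.0358). Slc22a18, an imprinted gene, was at -0.41 ± 0.19 (limma p = 0.0441), with 3 Cy5 arrays between -2.32 and -1.35 and the other 5 between -0.39 and 0.35. Arrays 7 and 8 were among those 3, and without arrays 7, 8 and 15 the estimate of Slc22a18 was -0.21 ± 0.14.

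Among phosphate and sulphate carriers, which include the citrate carrier Slc13a5, 4 of 12 genes lay above 0, with a median of -0.022, and 0.039 with the swaps turned. Slc13a1, a sodium-coupled sulphate carrier, was above 0 on all 8 Cy5 arrays (lowest 0.11, median 0.29, highest 0.60) and on 4 of 7 swaps (lowest -0.26, median 0.048, highest 0.49). The estimate was 0.19 ± 0.065 (limma p = 0.00935, adjusted p = 0.561). Slc13a5 was at -0.33 ± 0.15 (limma p = 0.0436), and without array 12, where it stood at -1.58, at -0.23 ± 0.13. Slc20a1, the phosphate carrier that also serves as a retrovirus receptor, was at -0.099 ± 0.069, without array 8 at -0.060 ± 0.062 and without arrays 7, 8 and 15 at -0.038 ± 0.068.

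The vitamin and haem class had 5 members. Slc46a1, the proton-coupled folate carrier, was at 0.30 ± 0.11 (limma p = 0.0113). It was above 0 on 6 of 7 swaps (lowest -0.036, median 0.36, highest 1.46) and on 4 of 8 Cy5 arrays (lowest -0.20, median 0.11, highest 0.82). The highest swap was array 15, and without arrays 7, 8 and 15 Slc46a1 was at 0.23 ± 0.096. Slc19a1, the reduced folate carrier, was on the other side at -0.095 ± 0.068, and the lysosomal haem carrier Slc48a1 at -0.16 ± 0.090; neither had an unadjusted p under 0.05.

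Carriers of neurotransmitters and amines had 11 of 17 genes above 0 and 1 gene with an unadjusted p under 0.05. That gene, Slc6a4, the serotonin transporter, had the lowest estimate of all 212 genes, -0.56 ± 0.25 (limma p = 0.0367, adjusted p = 0.682). On the Cy5 arrays it was -3.77 at the lowest, -0.90 at the median and 0.37 at the highest, and on the swaps -0.60, 0.13 and 0.79. The value thus came from the Cy5 arrays alone, with arrays 3 and 8 at -2.62 and -3.77. Without array 8 the estimate of Slc6a4 was -0.38 ± 0.18, and without arrays 7, 8 and 15 it was -0.30 ± 0.20.

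Metal carriers and ion exchangers showed no gene with an unadjusted p under 0.05 for the treatment estimate, of 18 and 25 tested. Slc11a2, the ferrous iron importer, was at 0.13 ± 0.15; array 15 stood at 2.20, and without it the estimate was -0.025 ± 0.075. Slc12a2, the sodium-potassium-chloride importer, was at 0.16 ± 0.18; array 10 stood at 2.89, and without it the estimate was -0.038 ± 0.068. Slc4a1, the anion exchanger of red cells, was at 0.093 ± 0.23; array 12 stood at 3.18, and without it the estimate was -0.16 ± 0.11. In each of the 3, a single array set the sign. No probe is named here for the iron exporter Slc40a1 or the mitochondrial iron importer Slc25a37.

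The lactate carrier Slc16a1 was at 0.064 ± 0.11 and the nucleoside carrier Slc29a1 at 0.0069 ± 0.10. Their classes had 5 of 6 and 3 of 3 genes above 0, with medians of 0.096 and 0.029, which were -0.17 and -0.035 with the swaps turned. Peptide carriers (3 genes) and carriers of lipids, bile acids, choline and urea (11 genes) had 1 and 6 genes above 0, and no gene of these 4 classes had an unadjusted p under 0.05. The 3 binding proteins lay between -0.084 and -0.023.

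Other transport genes from fixed lists gave no call for the treatment estimate either. Of 22 ABC transporters 8 lay above 0 (median -0.015), of 20 V-ATPase subunits 6 (median -0.025), of 6 sodium and calcium pumps 4 (median 0.060) and of 27 carriers with other names 14 (median 0.029). Among 4 partner proteins of carriers, Bsg, which brings lactate carriers to the surface, was at 0.072 ± 0.099. The dye effect was called in 4 of these 5 lists, for 1 gene each, where the background is 2.61% of all genes. A pattern by list was not tested. The genes were Bsg at 0.42 (limma adjusted p = 0.0341), the ABC transporter Abca7 at 0.42 (0.00415) and the V-ATPase subunit Atp6v0a1 at 0.33 (0.0248). Among carriers with other names it was Mtch1 at 0.25 (0.0287).

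The dye effect was called for more solute carrier genes than the treatment estimate. It was called for 8 of 212 genes, 5 above 0 and 3 below, where the background over all genes is 2.61% (1.92% above and 0.689% below). At an unadjusted p under 0.05, 18.9% of the solute carrier genes passed, against 19.5% of all genes. For these 8 genes the 2 orientations differed in sign, so their treatment estimates, between -0.17 and 0.11, were small and not called. As the 8 were picked for a difference between orientations, opposite signs and ranges that do not overlap follow in part from that choice. How many of all genes have ranges without overlap was not counted. Under the reading in which the swaps were not turned, the 8 would be the called genes and Slco4a1 would not.

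**Figure D3:**
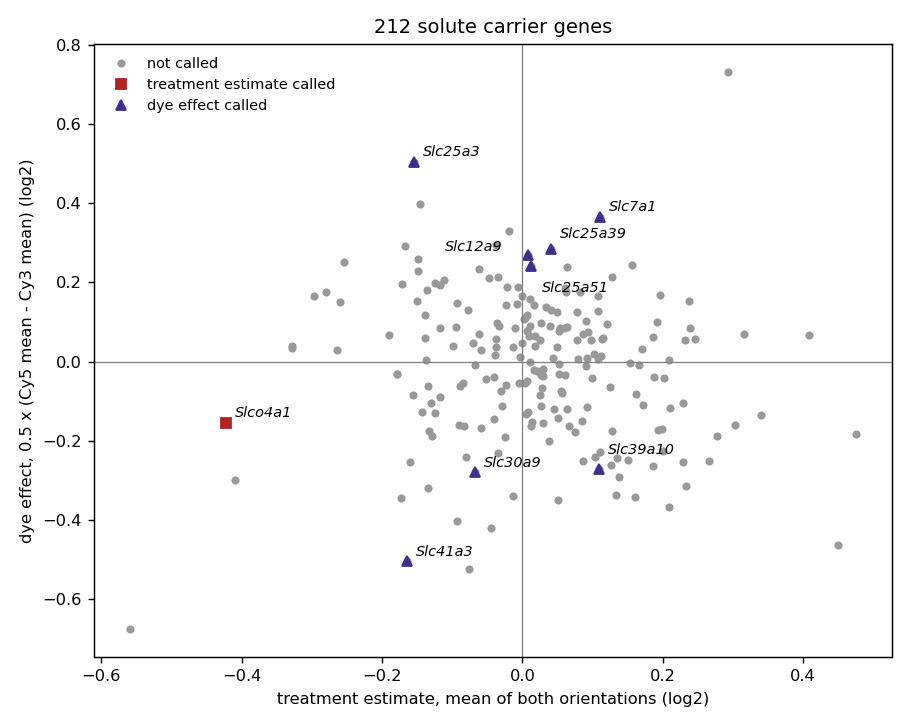
Dye effect (y axis, log2) against treatment estimate (x axis, log2) for the 212 solute carrier genes. The red square is the gene called for the treatment estimate, Slco4a1, purple triangles are the 8 genes called for the dye effect, and grey points are the others. No gene was called for both.

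Of the 5 genes above 0, 3 belong to the 25 mitochondrial carriers, where the background above 0 is 1.92% of all genes. A pattern by class was not tested. Slc25a39, a carrier of glutathione into mitochondria, lay above 0 on all 8 Cy5 arrays (lowest 0.23, median 0.31, highest 0.46) and below 0 on 6 of 7 swaps (lowest -0.88, median -0.15, highest 0.032). Its dye effect was 0.28 ± 0.061 (SE; limma adjusted p = 0.0253). Slc25a3, the phosphate carrier, had 11 values, 4 of them dim. Its Cy5 arrays lay between -0.073 and 0.88 and the swaps between -1.07 and -0.22, which do not overlap. The dye effect of Slc25a3 was 0.50 ± 0.12 (limma adjusted p = 0.0417). Slc25a3 was not among the genes called with dim values left out, with placeholders left in or after quantile normalization. Slc25a51, the carrier of NAD, was above 0 on 8 of 8 Cy5 arrays (lowest 0.0065, median 0.18, highest 0.57) and below 0 on 7 of 7 swaps (lowest -0.56, median -0.20, highest -0.015), with a dye effect of 0.24 ± 0.057 (limma adjusted p = 0.0363). Its 2 probes gave 0.29 ± 0.064 and 0.19 ± 0.079.

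Slc7a1, the carrier of arginine and lysine, was above 0 on the 6 Cy5 arrays with a value (lowest 0.19, median 0.40, highest 1.01) and below 0 on 6 of 7 swaps (lowest -0.66, median -0.25, highest 0.20). The dye effect was 0.37 ± 0.081 (limma adjusted p = 0.0311). Slc12a9, a relative of the cation-chloride carriers, was at 0.27 ± 0.069 (limma adjusted p = 0.0485), with 6 of 8 Cy5 arrays above 0 and 7 of 7 swaps below.

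All 3 genes below 0 move divalent metals or belong to families that do, a class of 18 genes here. The background below 0 is 0.689% of all genes, and a pattern by class was not tested. Slc39a10, a zinc importer with 3 probes, had Cy5 arrays between -0.43 and 0.0020 and swaps between 0.019 and 0.66, which do not overlap. The dye effect was -0.27 ± 0.055 (limma adjusted p = 0.0196), and its probes were at -0.17 ± 0.13, -0.44 ± 0.10 and -0.20 ± 0.11, all on the same side. Slc41a3, of a family of magnesium carriers, had Cy5 arrays between -1.89 and -0.20 and swaps between -0.010 and 1.03, which do not overlap, with a dye effect of -0.50 ± 0.12 (limma adjusted p = 0.0341). Slc30a9, of the zinc exporter family, had a dye effect of -0.28 ± 0.067 (limma adjusted p = 0.0364), and its orientations overlapped by little, with Cy5 between -0.71 and 0.054 and swaps between -0.0030 and 0.53. Slc36a2, an amino acid carrier, and Slc25a35 came next below 0, at -0.34 ± 0.11 and -0.26 ± 0.078, and were not called (limma adjusted p = 0.103 and 0.0780).

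**Figure D4:**
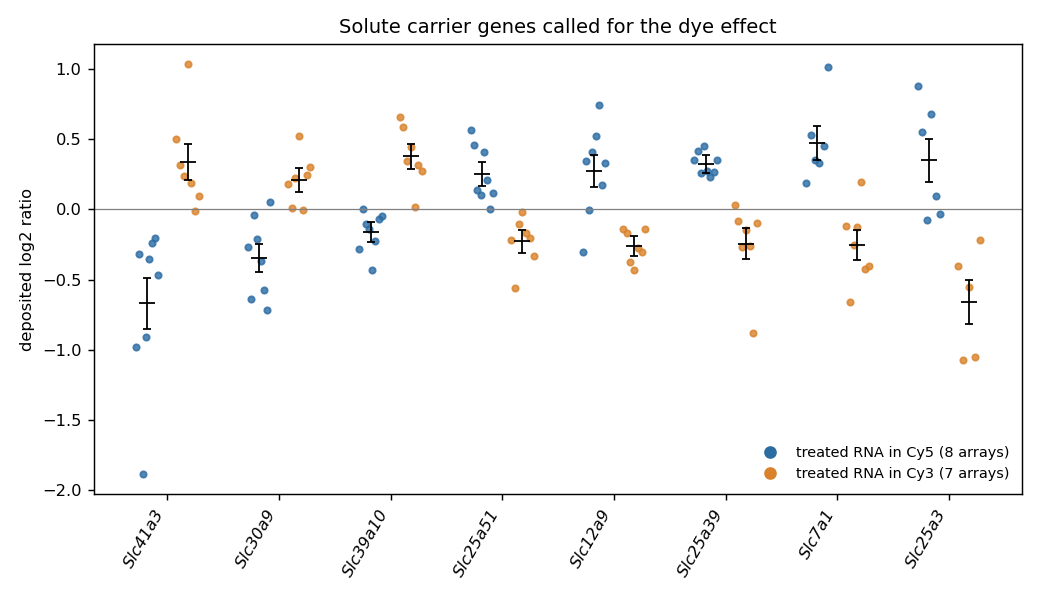
Deposited log2 ratio (y axis) on each array for the 8 solute carrier genes called for the dye effect, ordered by it (x axis). Blue points are arrays with the treated RNA in Cy5, orange points dye swaps, and black bars the mean ± SE of each orientation from its own limma fit. The orientation means lie on opposite sides of 0, and for Slc25a3, Slc25a39, Slc25a51, Slc39a10 and Slc41a3 the arrays do not overlap. Both follow in part from choosing genes for this difference, and the share of all genes without overlap was not counted.

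These calls also depended on single arrays. Slc39a10 was called in all 15 fits that leave out an array and Slc25a39 in 14, but Slc30a9 and Slc7a1 in 7, Slc25a3 and Slc41a3 in 6, Slc25a51 in 5 and Slc12a9 in 2. The count of solute carrier genes called for the dye effect was 5 without array 2 or 15, 4 without array 3, 3 without array 10 or 12, 2 without array 5, 6, 9 or 14, and 1 without array 11. Without arrays 7, 8 and 15 together it was 11, of which 7 were among the 8.

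Genes with several probes allowed a check of the averages. Of 43 solute carrier genes with 2 fitted probes, both probes had the same sign of the treatment estimate in 24, or 55.8%, beside 51.3% of 2107 genes on the array; for the dye effect it was 21, or 48.8%, beside 49.5%. Among 8 genes with 3 fitted probes, all probes shared a sign in 3 for the treatment estimate (37.5%, against 29.4% of 578 genes) and in 7 for the dye effect (87.5%, against 24.4%). Such shares are descriptions and were not tested. Over all genes they are near what unrelated signs would give, so probes of a gene hardly agreed in sign. This limits every gene-level estimate here, and 156 of the 212 genes have 1 probe and no such check. Within a gene the probes could lie far apart: those of Slc37a2 ran from -0.58 ± 0.60 to 0.21 ± 0.15, those of Slc22a16 from -0.17 ± 0.17 to 0.21 ± 0.14, and those of Slc49a4 from -0.38 ± 0.20 to 0.053 ± 0.090. Averages of these genes, at -0.0067, 0.028 and -0.17, therefore hide a wide spread. Closer together were the probes of Slc6a17 (-0.035 to 0.080), Slc66a2 (-0.19 and -0.0081 for 2 fitted probes of 3), Slc7a6 (-0.064 to 0.11) and Slc25a46 (-0.098 to 0.069), while those of Slc14a1 ran from -0.30 to -0.00036 and those of Slc11a2 from 0.015 to 0.23.

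**Figure D5:**
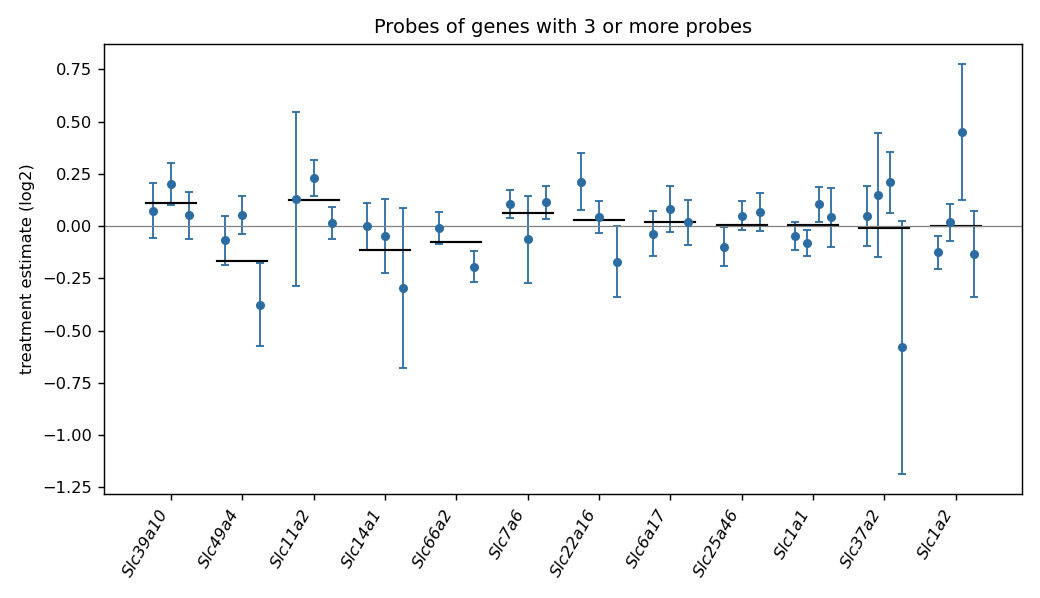
Treatment estimate (y axis, log2) of every fitted probe of the 12 solute carrier genes with 3 or more probes (x axis). Points with bars are probes with their SE from limma, and black lines are the gene averages. Probes of Slc37a2 and Slc1a2 lie farthest apart, and those of Slc39a10 are all above 0.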

How the data were processed

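Members and lists were chosen with earlier results of these data known. The authors deposited 1 table of log2 ratios per probe and array; how background, normalization and spots were handled before deposit is not stated in the labels, and the scale was inferred from the range of the values. Values with an absolute log2 above 10, placeholders for an empty channel, were set missing. Signal over background is unknown. Probes were named from the platform annotation (13891 with 1 symbol, 5 with several, 6309 with none) and updated through gene identifiers in RefSeq (GRCm38.p6), which matched 13855; all 284 solute carrier probes matched. No gene coordinates are given, as no build is stated for the probes. Probes of a gene were averaged on each array. Genes with values on 4 arrays of each orientation were fitted in limma 3.58.1 (lmFit, eBayes; R 4.3.3) with an intercept and the dye orientation as 1 or -1, two-sided. On simulated data for this comparison (9720 genes, independent normal noise with each gene's own spread), 82% of 100 genes shifted by 0.5 and 96% of 100 shifted by 1 (log2) were recovered, with 9 false calls. The real arrays correlated within an orientation (r up to 0.32) and held outlying values, so these rates need not carry over to them. A value was counted as dim where it lay within 0.0015 (log2) of a quotient of small integers, at most 6, after an offset specific to its array; 405 of 4093 spot values of solute carrier genes did. Genes named were those called, the 8 with the smallest p in each direction, the 5 with the smallest p for the dye effect in each direction, 16 known carriers where measured, and genes with 3 or more probes; others named in the text were chosen after their values were seen. Alternatives changed 1 choice at a time.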

Additional observations from a re-analysis of the deposited data

Results flagged for a closer look

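For the 46 named genes, 92 groups of arrays (each orientation of each gene) were searched for an array far from the others by Dixon's criterion, and 15 had one; chance flags about 5% of groups. Slco4a1 on array 3 was at -1.12, with the nearest array of its orientation at -0.68. Slc35d2 on array 4 was at 1.86, with the nearest array of its orientation at 0.34. Slc25a35 on array 12 was at 1.25, with the nearest array of its orientation at 0.57. Slc2a6 on array 7 was at -1.06, with the nearest array of its orientation at -0.15. Slc13a5 on array 12 was at -1.58, with the nearest array of its orientation at -0.56. Slc25a39 on array 14 was at -0.88, with the nearest array of its orientation at -0.27. Slc41a3 on array 3 was at -1.89, with the nearest array of its orientation at -0.98. Slc3a2 on array 7 was at -3.05, with the nearest array of its orientation at -0.42. Slc11a2 on array 15 was at 2.20, with the nearest array of its orientation at 0.29. Slc16a1 on array 1 was at -1.09, with the nearest array of its orientation at -0.14. Slc12a2 on array 10 was at 2.89, with the nearest array of its orientation at 0.37. Slc4a1 on array 12 was at 3.18, with the nearest array of its orientation at 0.26. Slc22a16 on array 15 was at 0.41, with the nearest array of its orientation at 0.12. Slc25a46 on array 3 was at -0.19, with the nearest array of its orientation at 0.047. Slc1a1 on array 15 was at 0.46, with the nearest array of its orientation at 0.016.

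The 2 dye orientations differed by limma's test for 8 solute carrier genes, described above. The dye effects were -0.27 for Slc39a10, -0.50 for Slc41a3, 0.37 for Slc7a1, 0.50 for Slc25a3, -0.28 for Slc30a9, 0.28 for Slc25a39, 0.24 for Slc25a51 and 0.27 for Slc12a9 (log2). The cause of the differences was not tested, and dye and array set cannot be told apart from an unturned treatment difference.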

How the results depend on the processing

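Of the 46 named genes, 39 changed the sign of the treatment estimate under some alternative, at 136 values in all, 48 of them with 1 array left out. None of these genes was called for that estimate in the fit described above, and causes were not tested. With the swaps turned, the 8 genes of the dye effect were called, by construction. Among these 8, Slc25a3 (0.50) and Slc39a10 (-0.27) were called there with the sign turned. Slco4a1 was below 0 under all 31 alternatives, from -0.58 to -0.15, and called in 23 of them (limma adjusted p from 0.00826 to 0.273). No paired analysis was possible because all arrays form 1 group and the labels pair none.

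The count of solute carrier genes called was 1 and stayed so under placeholders left in, both filters on missing values, centring, quantile normalization, scaling, no dye term, array weights, a robust prior, the most measured probe and dim values left out. It was 0 with either orientation alone, without arrays 7, 8 and 15, and with arrays n and n + 8 averaged, all with fewer values in the fit, and 8 with the swaps turned, by construction. Over single arrays left out it ran from 0 to 1. Of all genes, 4 were called; the count was 8 with placeholders left in or the most measured probe, 11 with array weights, 254 with the swaps turned, 0 with either orientation alone, without arrays 7, 8 and 15 or with arrays averaged, and 0 to 7 over single arrays left out (0 without array 10, 2 without array 11, 7 without array 6). At an unadjusted p under 0.05 there were 20 solute carrier genes, 40 with the swaps turned and 14 to 22 over single arrays left out. The median of their estimates stayed within the spread between arrays, and over single arrays left out it ran from 0.0091 to 0.029. The dye effect was called for 8 of them, for 5 after quantile normalization (all among the 8), 13 with array weights (8 among them), 1 with the swaps turned, and 1 to 10 over single arrays left out.

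Signs turned as follows. With the swaps turned, Slc35b4 was at -0.10, Slc7a8 at -0.0082, Slc46a1 at -0.16, Slc25a35 at -0.26, Slc7a5 at 0.17, Slc2a6 at 0.18, Slc5a1 at 0.059, Slc13a5 at 0.039, Slc25a3 at 0.50, Slc39a10 at -0.27, Slc3a2 at 0.030, Slc38a2 at -0.11, Slc29a1 at -0.048, Slc11a2 at -0.26, Slc20a1 at 0.039, Slc19a1 at 0.088, Slc12a2 at -0.34, Slc4a1 at -0.12, Slc25a5 at 0.26, Slc49a4 at 0.29, Slc14a1 at 0.20, Slc66a2 at 0.13, Slc22a16 at -0.066, Slc6a17 at -0.024 and Slc37a2 at 0.19. In the Cy5 arrays alone, Slc25a35 was at -0.077, Slc25a3 at 0.35, Slc39a10 at -0.16, Slc29a1 at -0.042, Slc11a2 at -0.14, Slc12a2 at -0.18, Slc4a1 at -0.023, Slc25a5 at 0.11, Slc49a4 at 0.12, Slc14a1 at 0.093, Slc66a2 at 0.054, Slc22a16 at -0.038, Slc6a17 at -0.0025 and Slc37a2 at 0.18. In the swaps alone, Slc6a4 was at 0.12, Slc25a39 at -0.24, Slc7a1 at -0.26, Slc25a51 at -0.23, Slc12a9 at -0.26, Slc41a3 at 0.34, Slc30a9 at 0.21, Slc36a2 at 0.33, Slc16a1 at -0.022, Slc7a6 at -0.13, Slc25a46 at -0.069, Slc1a1 at -0.10 and Slc1a2 at -0.046. With the most measured probe, Slc25a51 was at -0.061, Slc29a1 at -0.052, Slc7a6 at -0.064, Slc6a17 at -0.035, Slc25a46 at -0.098, Slc1a1 at -0.047, Slc37a2 at 0.15 and Slc1a2 at -0.13. With dim values left out, Slc29a1 was at -0.097, Slc6a17 at -0.024, Slc1a1 at -0.014, Slc37a2 at 0.056 and Slc1a2 at -0.022. Without arrays 7, 8 and 15, Slc36a2 was at 0.023, Slc29a1 at -0.0035, Slc11a2 at -0.0068, Slc25a46 at -0.0047 and Slc1a1 at -0.063. With arrays centred, Slc12a9 was at -0.00033, Slc29a1 at -0.0016, Slc25a46 at -0.0013, Slc1a1 at -0.0055 and Slc1a2 at -0.0085. With quantile normalization, Slc25a51 was at -0.0022, Slc29a1 at -0.043, Slc1a1 at -0.0069 and Slc1a2 at -0.038. With arrays scaled, Slc25a51 was at -0.0012, Slc29a1 at -0.010, Slc37a2 at 0.020 and Slc1a2 at -0.015. With array weights, Slc29a1 was at -0.078, Slc1a1 at -0.0085 and Slc1a2 at -0.038. With no dye term, Slc37a2 was at 0.0058. With arrays n and n + 8 averaged, Slc37a2 was at 0.00046. Leaving out 1 array at a time, the sign also turned for Slc25a51 (-0.010 to 0.040), Slc12a9 (-0.025 to 0.050), Slc36a2 (-0.079 to 0.041), Slc1a5 (-0.0040 to 0.16), Slc29a1 (-0.065 to 0.059), Slc11a2 (-0.025 to 0.17), Slc12a2 (-0.038 to 0.21), Slc4a1 (-0.16 to 0.20), Slc22a16 (-0.00062 to 0.059), Slc6a17 (-0.0056 to 0.058), Slc25a46 (-0.0063 to 0.027), Slc1a1 (-0.044 to 0.025), Slc37a2 (-0.11 to 0.095) and Slc1a2 (-0.070 to 0.077). The signal behind a spot is unknown, so dim and bright spots could be told apart only by the small whole-number ratios.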

Other observations

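Single solute carrier genes stood at the ends of several arrays. Slc14a2, the urea carrier of the kidney, had values on 9 arrays and the largest SE of the 212 genes, at 0.29 ± 0.55 (log2), with 5 of its spot values dim. It was the highest solute carrier gene on arrays 1 and 5 and the lowest on array 13. Slc9b1, a sperm sodium-proton exchanger, was the highest on arrays 7, 8 and 11, with an estimate of 0.41 ± 0.22 (SE; limma p = 0.0765). Slc16a9, a carnitine carrier, was at 0.45 ± 0.47 and the highest on array 9. These genes were chosen after their values were seen.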
